A study of Ziziphus jujuba var. spinosa with 24 samples.

Results

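The 193 gene models described here carry identifiers that begin with Ziziphus_jujuba_newGene_, which the deposited table gives to loci outside the annotated gene set, and averaged at least 20 CPM (a gene's count scaled by the library's total count) over 24 leaf libraries. The table held 32527 genes, of which 3234 were such new models, so that 5.97% of them were members and 3041 stayed under 20 CPM. The mean level chose the members, and levels are therefore given as a description. All 193 passed the filter on low counts and were tested.

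The plants were sour jujube, Ziziphus jujuba var. spinosa, in 2 ploidies: an autotetraploid line, labelled with the genotype autotetraploid, and a diploid line, labelled wild type. Leaves were taken from control plants and from plants at 6, 12 and 48 h of drought, imposed on tissue-cultured plants by polyethylene glycol raised in steps to 20% in the nutrient solution. Each of the 8 groups held 3 libraries, and plants had spent 30 days in tissue culture and 45 days in rooting medium beforehand. Whether the 3 libraries of a group are separate plants is not labelled. The p-values therefore rest on the variation among these libraries alone, and it may be technical. Each ploidy had 1 control group for all 3 times, and the hour of day at which leaves were taken was not given, so drought time and hour of day cannot be told apart.

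Polyethylene glycol lowers the water potential of the medium, and leaves answer with closure of stomata, hormone signals such as abscisic acid, and a large shift of transcription. An autotetraploid carries doubled copies of 1 genome. A new gene model arises when aligned reads assemble into a transcript at a place where the annotation has no gene. Such loci may be coding genes that the annotation missed, long non-coding RNAs, transcripts of mobile elements, or fragments of a neighbouring gene. None of the 193 identifiers was matched in the gene table used here, so none is given a name, a role or a position, and no source used here states strand use, so that reads of a model that overlaps another gene, runs antisense to it or has a near-identical copy cannot be told apart from that gene's reads. Identifiers are given in full at first mention and without the shared prefix Ziziphus_jujuba_ afterwards.

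The libraries held between 30750412 and 50404402 counts each (median 37199250), and no 2 were identical. The leaf label was checked with 2 rubisco activase genes, which serve photosynthesis: RCA2 (LOC107413423) stood between 1602 and 17449 CPM in every library and RCA1 (LOC107411034) was also detected in every library. Both fell at 12 h in both ploidies, RCA1 by 4.13 (autotetraploid) and 3.94 (diploid) on the log2 scale and RCA2 by 2.24 and 1.61. In leaf tissue measured in bulk, fewer cells of a type and less RNA per cell cannot be told apart.

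The new models at 20 CPM or more took 1.52% of the counts in the library with the lowest share, diploid 48 h replicate 1, and 3.51% in the highest, diploid 12 h replicate 3, with a median of 2.06%. They held 72.5% of the counts of all new models in the median library. Of the 193, 117 averaged 20 to 50 CPM, 38 averaged 50 to 100 CPM, 33 averaged 100 to 500 CPM and 5 more than 500 CPM. Counts were concentrated: 1 member, Ziziphus_jujuba_newGene_1746, held 21.4% of all member counts, and the top 6 held 44.6%. The median member averaged 40.8 CPM, against 50.4 CPM for the 9532 annotated genes that averaged at least 20 CPM.

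Transcript length, worked out from the ratio of deposited counts to deposited FPKM (fragments scaled by transcript length and library size), had a median of 1695 bases for the members, with quartiles of 977 and 2745 bases and a range of 352 to 14641 bases. The annotated genes at 20 CPM or more had a median of 2133 bases, with quartiles of 1520 and 2949 bases. Lengths under 1000 bases were given to 51 members (26.4%) and to 757 of those annotated genes (7.94%). Per length, the median member stood at 27.7 FPKM and the median annotated gene at 24.3 FPKM. Ziziphus_jujuba_newGene_1219, 785 bases long, had the highest length-scaled level among members at 2640 FPKM, followed by newGene_1746 at 506 FPKM over 10170 bases and Ziziphus_jujuba_newGene_4791 at 503 FPKM over 1540 bases.

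**Figure D1:**
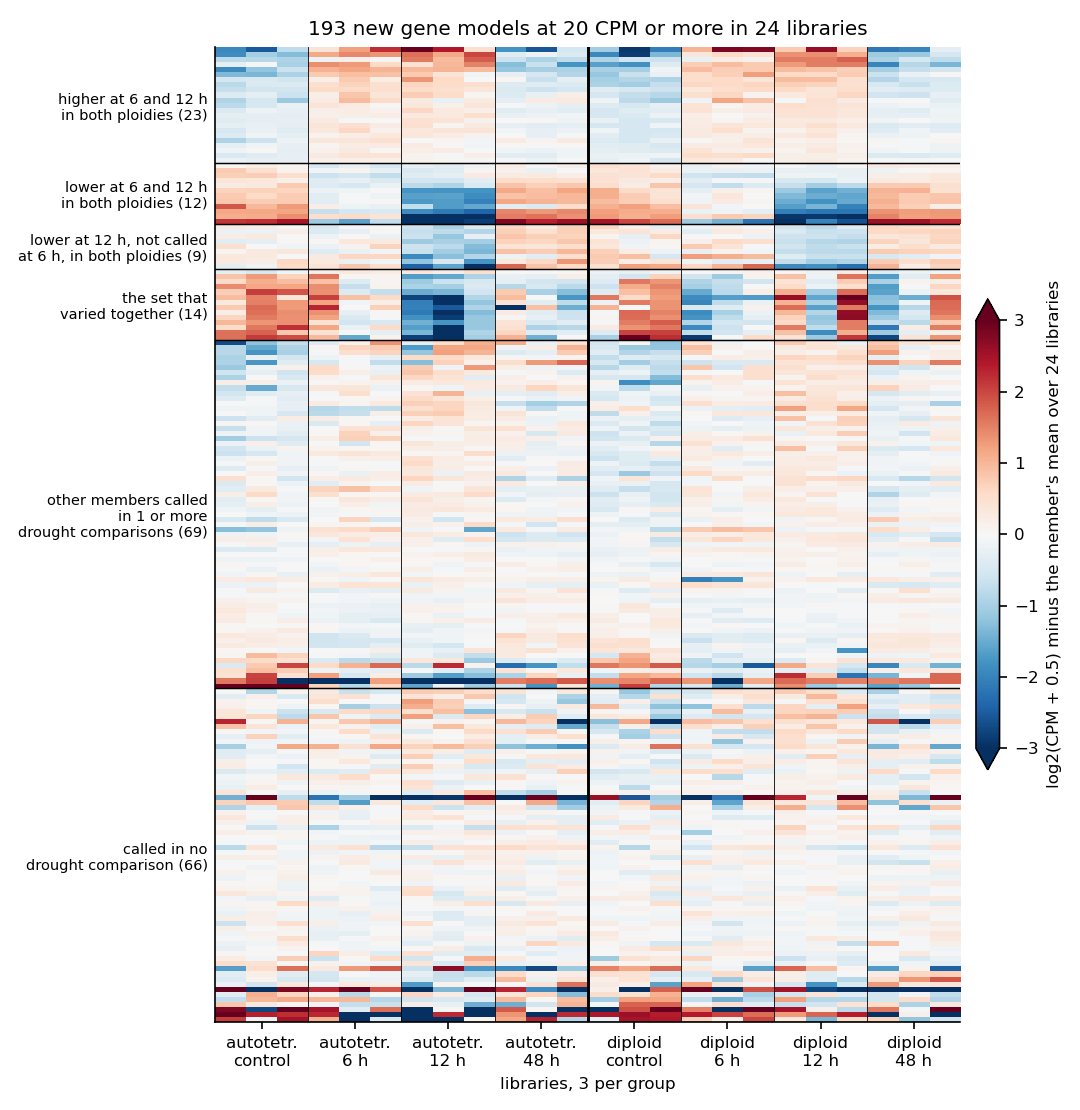
Level of each of the 193 members (rows) in each of the 24 libraries (columns, 3 per group), as log2(CPM + 0.5) minus the member's own mean, with red above and blue below that mean. Rows are arranged by the comparisons in which they were called, but for a block of 14 members grouped because they varied together. The 23 members in the top block are mostly red at 6 and 12 h in both ploidies. Most of the 12 in the second block are blue at 12 h and red in controls and at 48 h.

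In the autotetraploid, 65 of 193 members were called at 6 h against control, 40 higher and 25 lower, which is 33.7% of members, where 25.1% of all genes tested were called. The background in each direction was 12.7% higher and 12.4% lower over all genes tested. At 12 h, 88 members (45.6%) were called in autotetraploid leaves, 47 higher and 41 lower, against 29.6% of all genes tested (14.0% higher, 15.6% lower). At 48 h, 24 members (12.4%) were called, 14 higher and 10 lower, against 13.5% of all genes tested (6.08% higher, 7.43% lower). A gene was called where edgeR (quasi-likelihood test, p adjusted by Benjamini-Hochberg across the 25829 genes tested) gave an adjusted p under 0.05.

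Diploid leaves gave 62 called members (32.1%) at 6 h, 40 higher and 22 lower, against 21.3% of all genes tested (11.4% higher, 9.93% lower). At 12 h 80 members (41.5%) were called in diploid leaves, 52 higher and 28 lower, against 30.2% of all genes tested (14.6% higher, 15.5% lower). At 48 h 6 members (3.11%) were called, 4 higher and 2 lower, against 2.01% of all genes tested (1.1% higher, 0.91% lower). The 48 h counts rested on single libraries: with 1 library left out they ran from 0 to 12 in the diploid and from 13 to 32 in the autotetraploid. Lower counts came without autotetraploid 48 h replicate 1 (14), autotetraploid control replicate 1 (13) or autotetraploid control replicate 2 (14). In the diploid the count moved without 48 h replicate 1 (1), 2 (2) or 3 (0), and without control replicate 1 (12), 2 (0) or 3 (2).

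Annotated genes at 20 CPM or more passed the same threshold of level, but their replicates lay closer together. The SD over the mean of a group's libraries had a median of 8.39% for them and 13.0% for the members. Shares of these annotated genes called were 37.8%, 43.5% and 17.9% in the autotetraploid at 6, 12 and 48 h. In the diploid they were 33.9%, 45.1% and 3.5%. The members' shares lay near these values at 6 and 12 h and, in the diploid, at 48 h. In the autotetraploid at 48 h the members' share was lower (12.4% against 17.9%), a difference that was not tested. Nothing particular to the members is read from the counts. Median log2 fold changes of the members were -0.01, 0.07 and 0.09 in the autotetraploid at 6, 12 and 48 h, where all genes had 0.0, 0.02 and 0.0. In the diploid the members' medians were 0.07, 0.20 and 0.07, against -0.0, 0.0 and 0.01 over all genes. Of the called members, 53.4% were higher in the autotetraploid and 65.0% in the diploid at 12 h, while annotated genes had 47.0% and 47.5%. At 6 h 61.5% (autotetraploid) and 64.5% (diploid) of called members were higher, against 49.4% and 50.8% of called annotated genes. With library totals only in place of TMM scaling the 6 h shares were 63.5% and 64.1%, against 51.5% and 53.7%. The differences in these shares were not tested. The 12 h splits depend on the scaling. With library totals only, the log2 median of all genes at 12 h moved by 0.15 in the autotetraploid and 0.13 in the diploid. The share of higher calls among members then became 61.2% and 75%, and among annotated genes 66.9% and 64.3%. At 48 h the same change moved the share of higher calls among annotated genes from 61.1% to 46.4% in the autotetraploid, where the members' share moved from 58.3% to 54.2%, and the members' split in the diploid to 2 higher and 2 lower.

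**Figure D2:**
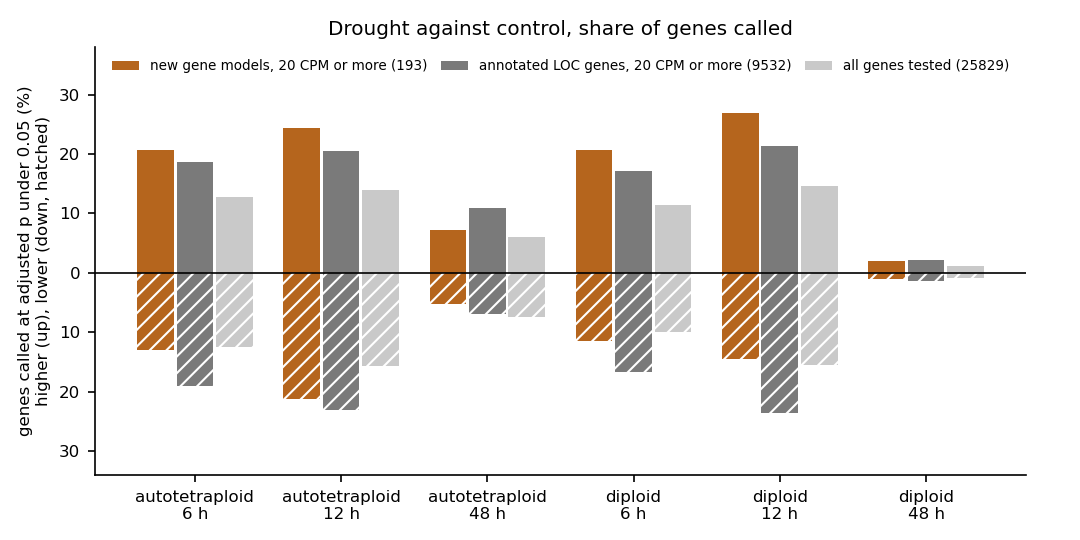
Share of genes called higher (upward bars) or lower (hatched downward bars) under drought against control, in percent, for the 193 members, the 9532 annotated genes at 20 CPM or more, and all 25829 genes tested. Members reach 47 higher and 41 lower at 12 h in the autotetraploid and 52 higher and 28 lower at 12 h in the diploid, and few are called at 48 h in the diploid.

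The ploidies have separate control libraries, so their calls can be compared. At 6 h 28 members were called higher in both, which is 70% of the 40 in the autotetraploid and 70% of the 40 in the diploid, against 69.5% and 75.5% for annotated genes at 20 CPM or more. The 17 called lower in both at 6 h were 68% of 25 and 77.3% of 22, against 68.8% and 78.8%. At 12 h 33 were higher in both, 70.2% of 47 in the autotetraploid and 63.5% of 52 in the diploid, against 80.7% and 77.0% for annotated genes. The 23 lower in both at 12 h were 56.1% of 41 and 82.1% of 28, against 83.9% and 81.6%. Of the 41, 13 belonged to a set of 14 members that varied together, described below, of which 0 were called at 12 h in the diploid. The other 179 members had 28 lower calls at 12 h in each ploidy. At 48 h 1 member was higher in both, of 14 and 4, and 1 lower in both, of 10 and 2, where annotated genes shared 14.7% and 76.5% of their higher calls and 16.5% and 82.1% of their lower ones. No member was called in opposite directions in the 2 ploidies at 6, 12 or 48 h, and of all genes tested 1, 0 and 0 were. None of these differences in shares was tested. The 3 times of a ploidy share their controls, so the groups of members that follow serve to order the description and are not read as overlap.

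Ziziphus_jujuba_newGene_3800, 823 bases long, rose strongly at 6 and 12 h with little spread. Autotetraploid leaves held 66.3, 82.3 and 76.1 CPM at 6 h and 95.1, 66.9 and 122 CPM at 12 h, against 7.85, 14.5 and 11.8 CPM in autotetraploid controls. Diploid leaves held 38.3, 45.3 and 40.4 CPM at 6 h and 78.4, 79.9 and 64.8 CPM at 12 h, against 7.52, 3.74 and 11.5 CPM in diploid controls. No drought library at 6 or 12 h overlapped its controls. Members named for the size of a called change, here and below, were picked among those without overlap. Lack of overlap in the comparisons that picked them follows from that choice and is a description only. The log2 fold changes were 2.72 ± 0.32 (SE) at 6 h and 3.05 ± 0.32 at 12 h in the autotetraploid, with adjusted p of 4.8e-06 and 8.2e-07. In the diploid they were 2.44 ± 0.32 and 3.29 ± 0.33, with adjusted p of 1.9e-05 and 3.7e-07. At 48 h newGene_3800 held 23.0, 27.2 and 22.1 CPM in the autotetraploid, a log2 fold change of 1.08 with adjusted p = 0.026. That call ended without 48 h replicate 1 (adjusted p = 0.053) or 2 (0.062) and without control replicate 1 (0.11). It also ended when only the compared libraries were fitted (0.062).

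Ziziphus_jujuba_newGene_2189, 4505 bases long, had larger fold changes and far more spread. It held 12.3, 22.5 and 45.0 CPM at 6 h and 82.3, 51.2 and 13.3 CPM at 12 h in the autotetraploid, against 2.05, 1.19 and 5.28 CPM in controls. Diploid leaves had 19.2, 68.2 and 66.7 CPM at 6 h and 16.3, 59.8 and 15.2 CPM at 12 h, against 4.2, 0.803 and 1.83 CPM in controls. Every library at 6 and 12 h stood above every control of its ploidy, while libraries of 1 group differed by up to several fold. On the log2 scale the fold changes were 3.23 ± 0.94 and 4.10 ± 0.98 at 6 and 12 h in the autotetraploid and 4.49 ± 0.99 and 3.73 ± 0.96 in the diploid, all called. The autotetraploid 6 h call ended without 6 h replicate 3 (adjusted p = 0.068), control replicate 1 (0.073) or control replicate 2 (0.071).

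newGene_1219, the member with the highest length-scaled level, held 2259, 3691 and 2830 CPM at 6 h in autotetraploid leaves, against 1019, 1318 and 889 CPM in controls. Diploid leaves had 1767, 4337 and 3453 CPM at 6 h, against 1755, 1105 and 893 CPM in controls, so that the lowest 6 h library lay close to the highest control. Levels at 12 h were 2286, 1644 and 2285 CPM in the autotetraploid and 1874, 2653 and 2266 CPM in the diploid. The 6 h rises were 1.44 ± 0.30 (adjusted p = 0.0016) and 1.35 ± 0.30 (adjusted p = 0.0032) on the log2 scale. At 12 h they were 0.95 (adjusted p = 0.022) and 0.86 (adjusted p = 0.036). Several single libraries decided the 12 h calls, which ended in the autotetraploid without 12 h replicate 1 (adjusted p = 0.066), 12 h replicate 3 (0.064), control replicate 1 (0.064) or control replicate 3 (0.077). In the diploid the 12 h call ended without 12 h replicate 2 (0.12), 12 h replicate 3 (0.066), control replicate 2 (0.11) or control replicate 3 (0.14). Both the diploid 6 h call (0.074) and the diploid 12 h call (0.072) ended when only the compared libraries were fitted. At 48 h newGene_1219 held 1587, 2266 and 2360 CPM in the autotetraploid, a called rise of 0.95 (adjusted p = 0.043) that ended in 9 of 30 alternatives. Among them were leaving out 48 h replicate 2 (adjusted p = 0.086) or 3 (0.11), control replicate 1 (0.12) or 3 (0.11), and libraries of other groups (autotetraploid 6 h replicate 3 and diploid 6 h replicate 3, 12 h replicate 3 and 48 h replicate 2, at 0.052 or 0.053). In the diploid the 48 h value was 0.49 and not called (adjusted p = 0.4).

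Across the 23 members called higher at 6 and 12 h in both ploidies, log2 fold changes spanned 0.28 to 3.23 at 6 h and 0.27 to 4.10 at 12 h in the autotetraploid, with medians of 0.83 and 0.77. In the diploid they spanned 0.47 to 4.49 and 0.35 to 3.73, with medians of 0.70 and 0.83. At 48 h the same members had medians of 0.18 in the autotetraploid and 0.27 in the diploid, with 3 and 1 called higher. Ziziphus_jujuba_newGene_1669 showed a small and even rise: 346, 378 and 319 CPM at 6 h and 375, 281 and 323 CPM at 12 h in the autotetraploid, against 221, 228 and 219 CPM in controls. Its diploid libraries held 318, 347 and 332 CPM at 6 h and 332, 375 and 326 CPM at 12 h, against 186, 187 and 245 CPM in controls. The groups did not overlap, with log2 fold changes of 0.64, 0.55, 0.69 and 0.74 in that order, and at 48 h the level was back at 217 ± 6.81 CPM in the autotetraploid and 205 ± 8.05 CPM in the diploid (SD, n = 3 each). newGene_1669 was singled out after its values were seen.

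Among members that fell, Ziziphus_jujuba_newGene_6016, 1869 bases long, fell to near 0. Autotetraploid leaves held 13.3, 9.19 and 17.1 CPM at 6 h and 1.96, 0 and 3.66 CPM at 12 h, against 129, 136 and 164 CPM in controls. Diploid leaves held 13.3, 10.5 and 5.8 CPM at 6 h and 3.19, 6.8 and 4.27 CPM at 12 h, against 165, 116 and 94.2 CPM in controls. At 48 h the level was 201, 147 and 174 CPM in the autotetraploid and 176, 170 and 137 CPM in the diploid, which overlapped the controls in both. The log2 fold changes were -3.44 ± 0.67 and -6.27 ± 0.77 at 6 and 12 h in the autotetraploid (adjusted p = 0.00086 and 5.7e-06). In the diploid they were -3.66 ± 0.67 and -4.72 ± 0.71 (adjusted p = 0.00065 and 5.5e-05). All 4 calls held in each of the alternatives run, with the adjusted p at most 0.018.

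Ziziphus_jujuba_newGene_3432, 807 bases long, fell modestly at 6 h and steeply at 12 h, with little spread. It held 206, 217 and 191 CPM at 6 h and 15.8, 14.6 and 10.1 CPM at 12 h in the autotetraploid, against 308, 310 and 377 CPM in controls. In the diploid it held 206, 250 and 231 CPM at 6 h and 18.5, 18.8 and 15.4 CPM at 12 h, against 349, 302 and 342 CPM in controls. The drought libraries at both times lay below all controls of the same ploidy. At 12 h the log2 fold changes were -4.62 ± 0.16 (adjusted p = 2.4e-13) in the autotetraploid and -4.24 ± 0.16 (adjusted p = 5.1e-13) in the diploid. By 48 h newGene_3432 stood at 414 ± 36.0 CPM in the autotetraploid and 365 ± 35.4 CPM in the diploid, against 331 ± 39.4 and 331 ± 25.4 CPM in their controls (SD, n = 3 each), and was not called. RCA1 and RCA2 were also lowest at 12 h, and their part in the result was not tested.

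The 12 members called lower at 6 and 12 h in both ploidies had median log2 fold changes of -0.86 at 6 h and -2.45 at 12 h in the autotetraploid and -0.70 and -2.17 in the diploid. At 48 h their medians were 0.24 and 0.11 in the autotetraploid and diploid, and 3 were called lower in the autotetraploid. A further 9 were called lower at 12 h in both ploidies and not at 6 h in either, with medians of -1.06 in the autotetraploid and -0.92 in the diploid at 12 h. Those 9 had medians of 0.57 and 0.27 at 48 h, where 3 were called higher in the autotetraploid.

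**Figure D3:**
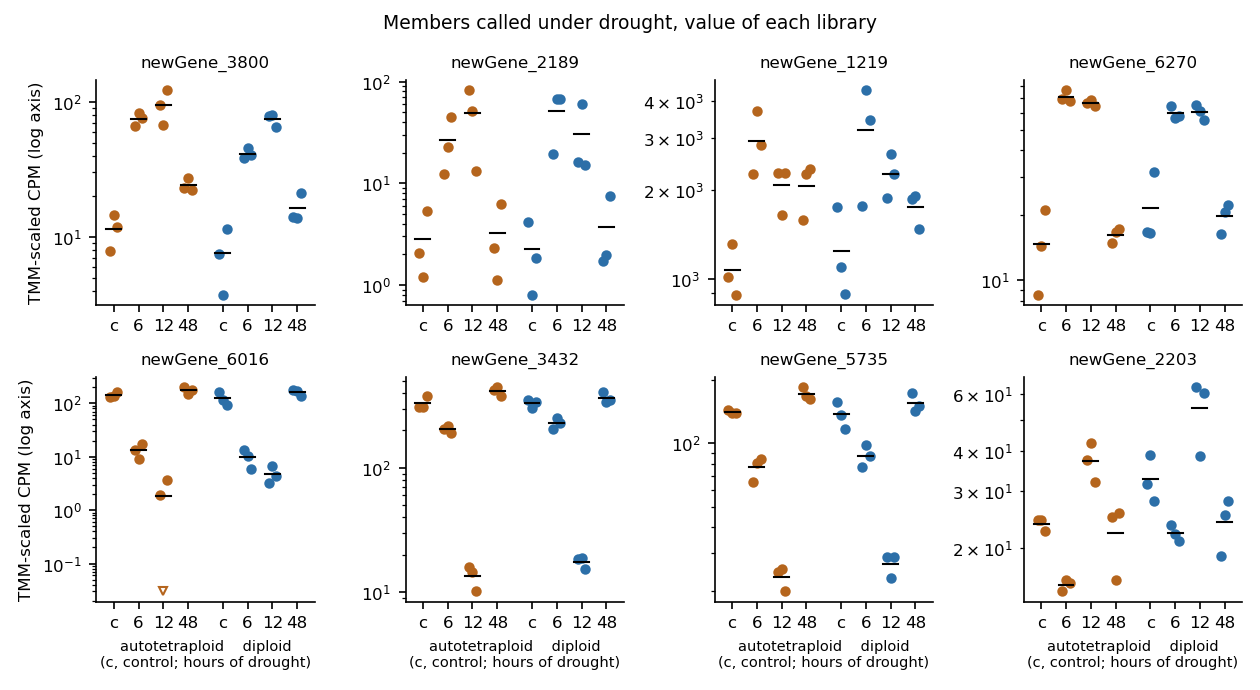
TMM-scaled CPM of 8 members in every library, on a log axis, with the autotetraploid (brown) left of the diploid (blue); dots are libraries, lines are group means (n = 3), and the open triangle marks a library at 0. newGene_3800, newGene_2189, newGene_1219 and newGene_6270 stand above their controls at 6 and 12 h, while newGene_6016, newGene_3432 and newGene_5735 stand below them and newGene_2203 is below at 6 h and, but for diploid 12 h replicate 2, above at 12 h.

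Several members moved against their own earlier change. They were singled out after their values were seen. Ziziphus_jujuba_newGene_2203, 857 bases long, held 14.6, 15.8 and 15.5 CPM at 6 h and 37.4, 42.2 and 32.1 CPM at 12 h in the autotetraploid, against 24.3, 24.4 and 22.6 CPM in controls. Its diploid libraries held 23.5, 22.0 and 20.9 CPM at 6 h and 63.2, 38.7 and 60.8 CPM at 12 h, against 31.5, 38.8 and 28.0 CPM in controls. It was thus below its controls at 6 h and above them at 12 h in both ploidies, apart from diploid 12 h replicate 2, which lay among the controls. The log2 fold changes were -0.64 (adjusted p = 0.022) and 0.65 (adjusted p = 0.017) in the autotetraploid and -0.56 (adjusted p = 0.046) and 0.73 (adjusted p = 0.0079) in the diploid. The diploid 6 h call ended in 16 of 30 alternatives, among them leaving out any 1 of its 6 h or control libraries except control replicate 3. The autotetraploid 6 h call ended without any 1 of the 6 h replicates (adjusted p = 0.075, 0.057 and 0.06) and without control replicates 1 or 2 (0.069 and 0.064). The autotetraploid 12 h call ended without 12 h replicate 2 (0.072) or control replicate 3 (0.051). The diploid 12 h call ended when only the compared libraries were fitted (0.058).

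In the autotetraploid, Ziziphus_jujuba_newGene_3526 held 89.6, 96.6 and 92.9 CPM at 12 h and 307, 289 and 330 CPM at 48 h, against 148, 156 and 198 CPM in controls. Both times lay outside the range of the controls, on opposite sides, with log2 fold changes of -0.85 (adjusted p = 0.00022) and 0.88 (adjusted p = 0.0011). Ziziphus_jujuba_newGene_1845 and Ziziphus_jujuba_newGene_3 had the same order, with log2 fold changes of -1.26 and -0.74 at 12 h and 0.65 and 0.68 at 48 h. The 48 h call of newGene_1845 ended without 48 h replicate 1 (adjusted p = 0.056) or 3 (0.07) and without control replicate 1 (0.09) or 2 (0.054). That of newGene_3 ended when only the compared libraries were fitted (0.054). Ziziphus_jujuba_newGene_3375 ran the other way, with 33.8, 32.2 and 26.0 CPM at 12 h and 12.4, 9.91 and 10.7 CPM at 48 h, against 20.7, 19.8 and 17.3 CPM in controls. In the diploid all 4 were called in the same direction as in the autotetraploid at 12 h, and at 48 h had log2 fold changes of 0.45, 0.42, 0.32 and -0.35 that were not called.

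At 48 h the largest called rise without overlap in both ploidies belonged to Ziziphus_jujuba_newGene_7205, 1168 bases long, at 80.8, 136 and 184 CPM in the autotetraploid, against 29.3, 16.4 and 43.2 CPM in controls. Diploid leaves held 145, 89.7 and 165 CPM, against 40.1, 27 and 34.5 CPM in controls. Neither pair of groups overlapped. Log2 fold changes were 2.17 ± 0.42 (adjusted p = 0.0032) in the autotetraploid and 1.98 ± 0.42 (adjusted p = 0.023) in the diploid, and newGene_7205 was the 1 member called higher at 48 h in both. The autotetraploid call ended when only the compared libraries were fitted (adjusted p = 0.062). The diploid 48 h call ended without 48 h replicate 1 (adjusted p = 0.058) or 3 (0.087) and without control replicate 2 (0.1) or 3 (0.075). It also ended when only the compared libraries were fitted (0.091). newGene_7205 was called higher at 12 h in the diploid as well (log2 fold change 1.18, adjusted p = 0.036), a call that ended in 6 of 30 alternatives.

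Ziziphus_jujuba_newGene_6945 was the 1 member called lower at 48 h in both ploidies, at 96.6, 113 and 97.5 CPM in the autotetraploid, against 135, 136 and 154 CPM in controls. The diploid had 107, 120 and 104 CPM, against 131, 154 and 180 CPM in controls. The groups did not overlap, and the log2 fold changes were -0.47 ± 0.10 (adjusted p = 0.0051) and -0.49 ± 0.10 (adjusted p = 0.019). Among the other calls at 48 h in the diploid were Ziziphus_jujuba_newGene_1884 (log2 fold change 0.76, adjusted p = 0.044) and Ziziphus_jujuba_newGene_5833 (-0.47, adjusted p = 0.032). These 2 calls ended in 16 and 6 of 30 alternatives. The 48 h calls of newGene_6945 ended in 5 of 30 in the diploid and, in the autotetraploid, in 1 (only the compared libraries fitted, adjusted p = 0.052). newGene_1884, newGene_6945 and newGene_5833 had been called higher at earlier times. In the diploid newGene_1884 had log2 fold changes of 1.1 at 6 h (adjusted p = 0.0003) and 0.82 at 12 h (adjusted p = 0.0024). Both of these calls held in each of the 30 alternatives. In the autotetraploid newGene_6945 had log2 fold changes of 0.32 at 6 h (adjusted p = 0.024) and 0.29 at 12 h (adjusted p = 0.031). The 6 h call ended without 6 h replicate 1 (0.092), control replicate 1 (0.086) or control replicate 2 (0.079), and the 12 h call without 12 h replicate 1 (0.14), 12 h replicate 2 (0.066), control replicate 1 (0.087) or control replicate 2 (0.086). That 12 h call also ended when only the compared libraries were fitted (0.09). newGene_5833 was higher at 6 h by 0.46 in the autotetraploid (adjusted p = 0.0033) and 0.39 in the diploid (adjusted p = 0.012), and the diploid call ended without 6 h replicate 1 (0.064) or control replicate 1 (0.078). That diploid call also ended when only the compared libraries were fitted (0.11).

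Ziziphus_jujuba_newGene_3725, 792 bases long, was called lower in the autotetraploid at each time. Autotetraploid leaves held 123, 41.5 and 116 CPM at 6 h, 25.1, 66.8 and 35.9 CPM at 12 h and 49.5, 22.0 and 96.1 CPM at 48 h, against 797, 602 and 1141 CPM in controls. Diploid controls held 27.8, 322 and 40.8 CPM, and no drought comparison was called in the diploid. Log2 fold changes in the autotetraploid were -3.18 (adjusted p = 0.014), -4.31 (adjusted p = 0.002) and -3.92 (adjusted p = 0.01). The tests of the difference between ploidies were not called: the interaction of ploidy and drought had log2 differences of -1.72, -3.85 and -2.34 at 6, 12 and 48 h, with adjusted p of 0.85, 1.0 and 0.8. The difference between autotetraploid and diploid controls was 2.70 ± 0.88 on the log2 scale, with adjusted p = 0.42. The 6 h call ended without 6 h replicate 2 (adjusted p = 0.069).

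The remaining members named by size of change had wide groups. Ziziphus_jujuba_newGene_6259 averaged 53.6 ± 35.0, 52.9 ± 23.7 and 53.4 ± 24.1 CPM at 6, 12 and 48 h in the autotetraploid, against 14.5 ± 8.7 CPM in controls (SD, n = 3 each), and was called higher at each time. Leaving out autotetraploid control replicate 1 ended all 3 calls of newGene_6259 (adjusted p = 0.065, 0.055 and 0.1), as did 6 h replicate 3 at 6 h (0.11), 12 h replicate 3 at 12 h (0.059) and 48 h replicate 1 (0.11) or control replicate 2 (0.066) at 48 h. Fitting only the compared libraries also ended all 3 (0.1, 0.082 and 0.13). Ziziphus_jujuba_newGene_1375 fell to 7.57 ± 4.06 CPM at 6 h in the diploid, against 59.1 ± 10.0 CPM in controls, and to 6.68 ± 4.04 CPM at 48 h in the autotetraploid, against 41.9 ± 32.9 CPM in controls (SD, n = 3 each). The autotetraploid 48 h call of newGene_1375 ended without 48 h replicate 1 (adjusted p = 0.13) or 2 (0.096) and without control replicate 2 (0.05) or 3 (0.15). Fitting only the compared libraries also ended it (0.1). The diploid 6 h call ended without 6 h replicate 3 (0.06).

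newGene_1746, 10170 bases long, holds the most counts of any member, and its replicates lay far apart. Controls held 4638, 9477 and 14498 CPM in the autotetraploid and 3749, 8019 and 9512 CPM in the diploid. In the autotetraploid it held 7050, 2760 and 4751 CPM at 6 h, 1015, 150 and 1446 CPM at 12 h and 4338, 1676 and 1790 CPM at 48 h. In the diploid it held 842, 2076 and 3123 CPM at 6 h, 9388, 1871 and 9186 CPM at 12 h and 717, 3704 and 9205 CPM at 48 h. All libraries lay below every control of their ploidy at 12 and 48 h in the autotetraploid and at 6 h in the diploid. Diploid 48 h libraries spanned 12.8-fold within 1 group. The fall at 12 h in the autotetraploid was called (log2 fold change -3.45 ± 0.93, adjusted p = 0.0087) and held in each of the 30 alternatives, and no other drought comparison of newGene_1746 was called. The interaction at 12 h was -3.40 ± 1.23 on the log2 scale and was called neither by edgeR (adjusted p = 1.0) nor by DESeq2 (adjusted p = 0.19). The level at 12 h, autotetraploid over diploid, differed by -2.97 in edgeR, which did not call it (adjusted p = 0.71), and by -2.96 in DESeq2, which did (adjusted p = 0.018).

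The levels of 13 other members tended to go up and down with that of newGene_1746 from library to library, though not in every library. To see this, each member's log2(CPM + 0.5) was taken as a deviation from its group mean, and members were grouped by average linkage at a correlation of 0.5 over the 24 libraries. The set was picked out after its values were seen and carries no test. Besides newGene_1746 and newGene_4791 it held Ziziphus_jujuba_newGene_5193, Ziziphus_jujuba_newGene_1752, Ziziphus_jujuba_newGene_1554, Ziziphus_jujuba_newGene_4356, Ziziphus_jujuba_newGene_1553, Ziziphus_jujuba_newGene_1555, Ziziphus_jujuba_newGene_1750, Ziziphus_jujuba_newGene_4355, Ziziphus_jujuba_newGene_2023, Ziziphus_jujuba_newGene_1766, Ziziphus_jujuba_newGene_5519 and Ziziphus_jujuba_newGene_5145. Correlations of the others with newGene_1746 ran from 0.53 (newGene_5193) to 0.90 (newGene_1752). Each of the others was highest in the same library as newGene_1746 in only 4 to 6 of the 8 groups. The points are 24 libraries that share depth and composition, and the values are a description.

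Summed over the 14, the level ran from 385 CPM in autotetraploid 12 h replicate 2 to 17480 CPM in diploid 12 h replicate 3. Within a group the highest library exceeded the lowest by 2.15-fold (diploid controls) to 10.5-fold (diploid 48 h). Autotetraploid sums were 6931, 13072 and 17017 CPM in controls, 11105, 4235 and 6308 CPM at 6 h, 1342, 385 and 2130 CPM at 12 h and 5899, 2900 and 2392 CPM at 48 h. Diploid sums were 5936, 10792 and 12779 CPM in controls, 1352, 2748 and 4027 CPM at 6 h, 13666, 2418 and 17480 CPM at 12 h and 1201, 4497 and 12669 CPM at 48 h. newGene_1746 held 70.3% of the set's counts. Without it the sums of the other 13 spanned 1.49-fold in diploid controls, 7.15-fold at 48 h in the diploid and 15.1-fold at 12 h in the diploid (548 to 8295 CPM). The set accounted for 30.4% of all member counts. Without it, the members' share of a library's counts ran from 1.30% to 1.77%, against 1.52% to 3.51% with it. The next largest group of members found in the same way held 12.

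**Figure D4:**
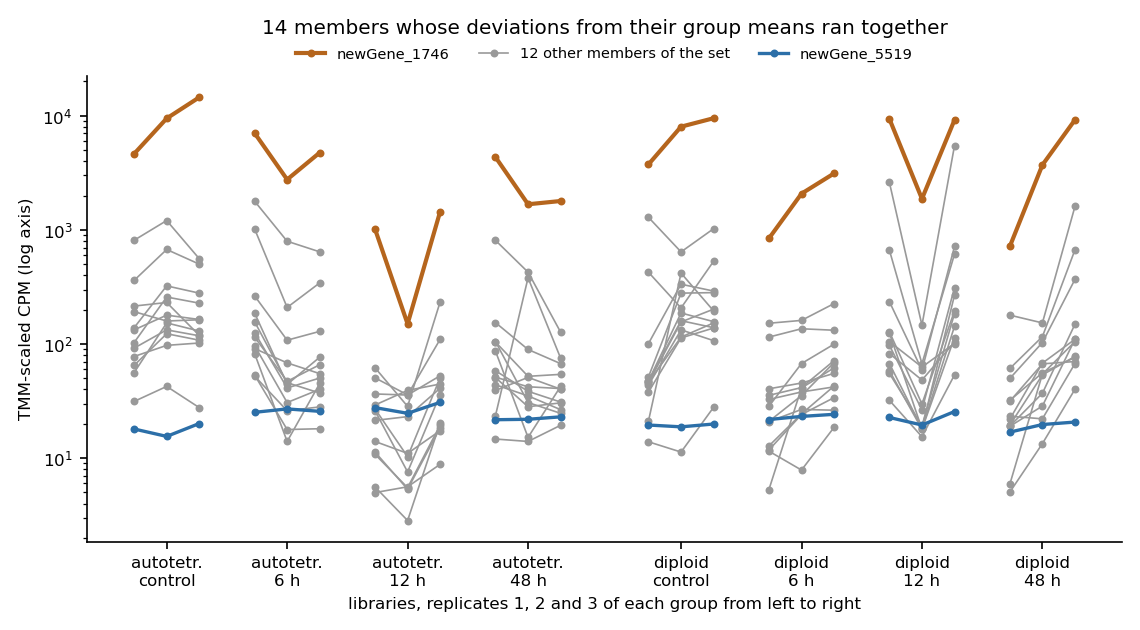
TMM-scaled CPM of the 14 members that varied together, on a log axis, in each library of the 8 groups; points of 1 member within a group are joined to show which belong together. newGene_1746 is drawn in brown, newGene_5519 in blue and the other 12 in grey; autotetraploid 12 h replicate 2 and diploid 12 h replicate 2 are low and diploid 12 h replicate 3 is high for most members.

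At 12 h in the autotetraploid, 13 of the 14 were called lower and 1, newGene_5519, higher. Over all genes tested 15.6% were called lower and 14.0% higher. The 14 were grouped because they varied together in these libraries, so their calls are not separate results. In the diploid at the same time 0 of the 14 were called by edgeR and by DESeq2, and 0 had an unadjusted p under 0.05. The test of the difference, the interaction at 12 h, was called for 0 of the 14 by edgeR and for 1, newGene_5145, by DESeq2. In edgeR 10 of the 14 had an unadjusted p under 0.05, against 4.69% of all genes tested. The median interaction of the 14 was -3.06 on the log2 scale. The difference between ploidies at 12 h was called for 0 of the 14 by edgeR and for 7, all lower in the autotetraploid, by DESeq2. In edgeR 13 of the 14 had an unadjusted p under 0.05, against 5.31% of all genes tested. At 6 h in the diploid edgeR called 3 lower (newGene_4355, newGene_1554 and newGene_1766), against 9.93% of all genes tested. DESeq2 called 8 lower, and in edgeR 10 had an unadjusted p under 0.05, against 33.0% of all genes tested. At 48 h in the autotetraploid 2 were called lower (newGene_4356 and newGene_4355), against 7.43% of all genes tested. Both 48 h calls, and the 6 h edgeR calls but that of newGene_4355, ended when any of several single libraries was left out, with adjusted p of at most 0.12. The 6 h call of newGene_4355 ended when only the compared libraries were fitted (adjusted p = 0.073). The other 179 members had 46 higher and 28 lower calls at 12 h in the autotetraploid. newGene_5519 differed from the rest of the set in size as well as direction, since its group means stayed between 17.9 and 27.7 CPM. The calls at 12 h in the autotetraploid ended for newGene_4791 in 18 of 30 alternatives and for newGene_5193 in 5, and the calls of newGene_1752, newGene_1553 and newGene_1555 ended without 12 h replicate 2 (adjusted p = 0.058, 0.051 and 0.082), the last 2 also without 12 h replicate 1 (0.055 and 0.082). At a correlation of at least 0.7 with newGene_1746 stood 7 of the 192 other members (3.65%) and 17 of the 9532 annotated genes (0.178%). Within-group CV (SD over mean of the 3 libraries, median over 8 groups) had a median of 52.6% in the set and 12.2% in the other 179 members.

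Over all 193 members the median within-group CV was 13.0%, with quartiles of 7.8% and 26.5%. Annotated genes at 20 CPM or more had a median of 8.39%, with quartiles of 5.79% and 13.0%. In the band from 20 to 50 CPM the medians were 12.2% for 117 members and 9.25% for 4732 annotated genes. A CV over 50% was found for 21 members (10.9%) and 155 annotated genes (1.63%). These are descriptions, as no test of the difference was run.

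For 7 of 193 members (3.63%) the libraries of 1 group differed by at least 50-fold, the higher one having at least 5 CPM, against 180 of 9532 annotated genes (1.89%). The shares lay close together at 20 to 50 CPM, with 3 of 117 members (2.56%) and 134 of 4732 annotated genes (2.83%), and apart at 50 CPM and more, with 4 of 76 members (5.26%) and 46 of 4800 annotated genes (0.958%). Ziziphus_jujuba_newGene_16, 2272 bases long, fell into 2 separate levels. In 7 libraries it lay between 1.38 and 15.4 CPM, and in the other 17 between 298 and 564 CPM. The low libraries were autotetraploid control replicate 3, 6 h replicates 1 and 2, 12 h replicates 1, 2 and 3, and diploid 6 h replicate 2. Since all 3 autotetraploid 12 h libraries were low, newGene_16 was called lower there (log2 fold change -4.65 ± 1.48, adjusted p = 0.023). That call ended without any 1 of those 3 libraries (adjusted p = 0.073, 0.073 and 0.067) or control replicate 2 (0.062), and 1 of its controls, at 15.4 CPM, was itself at the low level.

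Ziziphus_jujuba_newGene_2145 had a gap of the same kind. It was at most 0.0601 CPM in 7 libraries, 5 of them with a count of 0, and between 17.3 and 143 CPM in the other 17. Autotetraploid leaves held 143, 79.8 and 74.2 CPM in controls, 75.9, 0 and 0 CPM at 6 h, 0, 75.1 and 0.0601 CPM at 12 h and 39.7, 0.027 and 75 CPM at 48 h. Diploid leaves held 84.6, 93.5 and 81.2 CPM in controls, 82.4, 64.3 and 50.4 CPM at 6 h, 37.9, 53.3 and 80.7 CPM at 12 h and 0, 17.3 and 0 CPM at 48 h. None of its drought comparisons was called. At the depth of these libraries a count of 0 allows a level of up to 3 counts in the total, which covers counting error only.

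Ziziphus_jujuba_newGene_3046 ranged from 0.631 to 1125 CPM, with 180, 0.798 and 1123 CPM at 6 h in the diploid, against 1.68, 241 and 527 CPM in controls. Ziziphus_jujuba_newGene_4219 reached 448 CPM in autotetraploid 6 h replicate 2 and 349 CPM in autotetraploid 12 h replicate 3, and was at most 97.6 CPM in the other 22 libraries, with a count of 0 in 6. Ziziphus_jujuba_newGene_3035 was at most 9.8 CPM in 16 libraries and between 40.2 and 932 CPM in 8. Ziziphus_jujuba_newGene_3231 and Ziziphus_jujuba_newGene_2138 were each low in 3 libraries, at no more than 1.42 and 0.049 CPM. None of these 5 was called in any drought comparison, and low and high libraries stood side by side within 2 to 7 of the 8 groups for each of the 7 members.

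**Figure D5:**
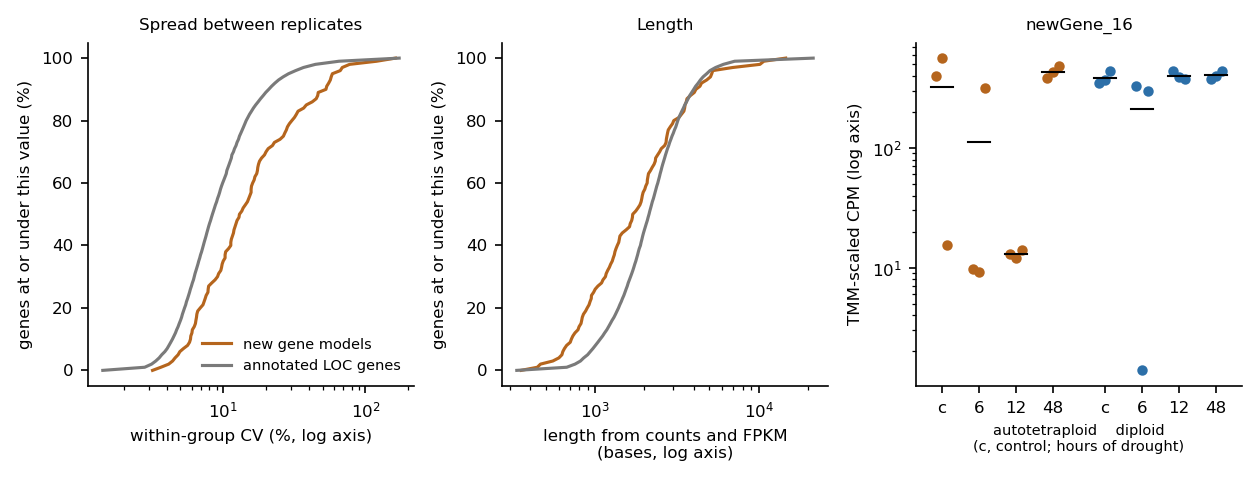
Left and middle: share of genes at or under a given within-group CV and a given length (log axes), for the 193 members (brown) and the 9532 annotated genes at 20 CPM or more (grey), with medians of 13.0% against 8.39% and 1695 against 2133 bases. Right: TMM-scaled CPM of newGene_16 in each library (log axis; lines are group means, n = 3), with 7 libraries at 1.38 to 15.4 CPM and 17 at 298 to 564 CPM.

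At least 1 of the 6 drought comparisons was called for 127 members (65.8%), against 65.5% of the annotated genes at 20 CPM or more and 48.6% of all genes tested. The 66 members (34.2%) called in none were not all steady, since 6 of the 7 with libraries at least 50-fold apart were among them and their log2 fold changes ran from -9.32 to 3.57. Ziziphus_jujuba_newGene_7746 had the lowest CV over all 24 libraries, with group means between 27.2 and 29.9 CPM. Ziziphus_jujuba_newGene_1138 held 135, 136 and 129 CPM at 48 h in the autotetraploid, against 117, 116 and 116 CPM in controls, and this rise of 0.19 ± 0.06 on the log2 scale was called (adjusted p = 0.036). With library totals only it was 0.13 and not called (adjusted p = 0.16), and the call ended in 6 of 30 alternatives. Ziziphus_jujuba_newGene_5549 was called at 6 and 12 h in the autotetraploid with log2 fold changes of 0.22 and 0.26, although its CV was among the 3 lowest. Both calls ended when only the compared libraries were fitted (adjusted p = 0.057 and 0.072), and the 6 h call also without 6 h replicate 3 (0.066). Ziziphus_jujuba_newGene_4269, among the 6 members with the most counts, was called in no comparison, with group means between 313 and 472 CPM.

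Differences between autotetraploid and diploid leaves were tested under each treatment. edgeR called 0 of 193 members in controls, at 6 h, at 12 h and at 48 h, where 0.0%, 0.0%, 0.0194% and 0.139% of all genes tested were called. By direction, the background was 0.00387% higher and 0.0155% lower in the autotetraploid at 12 h, and 0.00774% higher and 0.132% lower at 48 h. In edgeR 30, 18, 23 and 5 members (15.5%, 9.33%, 11.9% and 2.59%) had an unadjusted p under 0.05. Over all genes tested the shares were 8.63%, 7.43%, 5.31% and 8.34%, and over annotated genes at 20 CPM or more 11.1%, 10.2%, 5.94% and 6.4%. Of the 23 members at 12 h, 13 belonged to the set that varied with newGene_1746 and 10 were among the other 179 members. DESeq2 called 1, 0, 8 and 0 members, and no share over all genes was worked out for DESeq2. Averaged over the 4 treatments edgeR called 0 members, against 0.403% of all genes tested (0.105% higher, 0.298% lower). There 24 members (12.4%) had an unadjusted p under 0.05, against 13.8% of all genes tested and 18.1% of annotated genes at 20 CPM or more. DESeq2 called 4 members there. The interactions of ploidy and drought at 6, 12 and 48 h gave 0 calls in edgeR (0.0% of all genes tested at each time). In edgeR 18, 24 and 10 members (9.33%, 12.4% and 5.18%) had an unadjusted p under 0.05, against 6.39%, 4.69% and 6.3% of all genes tested. Annotated genes at 20 CPM or more had 7.68%, 5.15% and 5.64%. Of the 24 members at 12 h, 10 belonged to the set that varied with newGene_1746 and 14 did not. DESeq2 called 1, 1 and 0 members. No response of a member to drought is therefore shown to differ between the ploidies by edgeR.

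The smallest adjusted p of a member was that of newGene_2203, lower in the autotetraploid by 0.41 ± 0.10 on the log2 scale averaged over the treatments (adjusted p = 0.064; DESeq2 0.0058). Its levels were 23.8 ± 1.04 CPM in autotetraploid and 32.8 ± 5.48 CPM in diploid controls, 15.3 ± 0.632 and 22.2 ± 1.3 CPM at 6 h, 37.2 ± 5.04 and 54.3 ± 13.5 CPM at 12 h, and 22.1 ± 5.47 and 24 ± 4.71 CPM at 48 h (SD, n = 3 each). newGene_3800 followed, with a log2 difference of 0.59 ± 0.15 (adjusted p = 0.087; DESeq2 0.0065). Of the 8 members that DESeq2 called at 12 h, all lower in the autotetraploid, 7 belonged to the set that varied with newGene_1746 and the eighth was newGene_16. In edgeR these 8 had adjusted p of 0.61 or 0.71.

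Other members with many counts changed in both directions. Ziziphus_jujuba_newGene_1723 held 889, 727 and 574 CPM at 12 h in the autotetraploid, against 1023, 1872 and 1537 CPM in controls (log2 fold change -1.02 ± 0.29, adjusted p = 0.012). Its call ended without 12 h replicate 3 (adjusted p = 0.059) or control replicate 2 (0.074). Ziziphus_jujuba_newGene_1724, the next identifier, went the other way, with 1002, 929 and 796 CPM at 12 h, against 603, 765 and 665 CPM in controls (log2 fold change 0.42 ± 0.13, adjusted p = 0.018). The 12 h call of newGene_1724 ended without 12 h replicate 1 (adjusted p = 0.085) or control replicate 1 (0.082), and when only the compared libraries were fitted (0.076). Ziziphus_jujuba_newGene_6179 was also called higher in the autotetraploid, with 251, 369 and 415 CPM at 6 h and 116, 619 and 530 CPM at 12 h, against 148, 76.9 and 134 CPM in controls, and 12 h replicate 1 lay among the controls. The 6 h call of newGene_6179 ended without 6 h replicate 2 (adjusted p = 0.062), 6 h replicate 3 (0.076) or control replicate 2 (0.1). Its 12 h call ended when only the compared libraries were fitted (adjusted p = 0.1). Ziziphus_jujuba_newGene_5051, a member of 626 bases, stayed between 206 and 243 CPM in all group means and was not called.

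Identifiers that follow each other made 19 pairs among the members. Whether such numbers mark neighbouring loci was not given, and positions were not used here. The correlation of within-group deviations had a median of 0.32 over the 19 pairs and ran from -0.53 to 0.89, and 8 pairs reached 0.5. Over all 18528 pairs of members the median was 0.02 and 4.81% reached 0.5. Some of the 8 pairs lay within the set grouped for varying with newGene_1746 and are not separate evidence. These were newGene_4355 with newGene_4356, and newGene_1554 with both newGene_1553 and newGene_1555. Ziziphus_jujuba_newGene_5735 and Ziziphus_jujuba_newGene_5736, 1311 and 1232 bases long, ran closely together, and like newGene_6270, newGene_6271, newGene_6179 and newGene_5051 they were singled out after their values were seen. newGene_5735 held 24.5, 25.4 and 19.8 CPM at 12 h in the autotetraploid, against 144, 140 and 140 CPM in controls, and newGene_5736 held 24.2, 23.8 and 23.7 CPM, against 132, 135 and 131 CPM. Their log2 fold changes at 12 h were -2.60 and -2.47 in the autotetraploid and -2.36 and -2.09 in the diploid.

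Ziziphus_jujuba_newGene_6270 and Ziziphus_jujuba_newGene_6271, in contrast, moved apart. newGene_6270, 381 bases long, held 69.3, 76.2 and 68.1 CPM at 6 h and 66.5, 68.8 and 64.6 CPM at 12 h in the autotetraploid, against 8.53, 14.4 and 21.1 CPM in controls. newGene_6271, 3007 bases long, held 47.0, 52.5 and 42.5 CPM at 6 h and 35.9, 38.4 and 52.4 CPM at 12 h, against 85.6, 69.1 and 53.9 CPM in controls. Drought and control libraries did not overlap for either at 6 or 12 h. The log2 fold changes of newGene_6270 were 2.28 and 2.18 at 6 and 12 h in the autotetraploid and 1.47 and 1.48 in the diploid, all called. Those of newGene_6271 were -0.56, -0.72, -0.53 and -0.56 in the same order, also called, though the autotetraploid 6 h call ended without control replicate 1 (adjusted p = 0.091) and the diploid 6 h call without control replicate 2 (0.053). Both autotetraploid calls of newGene_6271 also ended when only the compared libraries were fitted (adjusted p = 0.08 at 6 h and 0.072 at 12 h). Since strand use was not given, reads shared between such models cannot be told apart.

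The threshold of 20 CPM cut through a continuous range. Just inside stood Ziziphus_jujuba_newGene_1459 at 20.22 CPM and Ziziphus_jujuba_newGene_2168 at 20.01 CPM, and just outside Ziziphus_jujuba_newGene_1062 at 19.93 CPM and Ziziphus_jujuba_newGene_4449 at 19.85 CPM. newGene_1459 was called higher and newGene_2168 lower at 6 and 12 h in both ploidies. newGene_4449 was called lower at 6 h in both, with log2 fold changes of -0.45 and -0.35, and newGene_1062, which ranged from 0 to 66.2 CPM, in none.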

How the data were processed

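Leaf RNA libraries were aligned and assembled with HISAT2 and StringTie, per the submitters' processing notes; the sources used here give no versions, genome build, annotation or strand use. The authors deposited raw counts per gene for 24 libraries and, in separate tables, FPKM values per group. Counts were tested with edgeR 4.0.16 (R 4.3.3): filterByExpr by group left 25829 of 32527 genes, TMM scaling, 1 mean per group over 8 groups (16 residual degrees of freedom), robust quasi-likelihood fit, Benjamini-Hochberg adjustment over all genes tested, threshold 0.05. CPM values in the text are TMM-scaled unless a mean over the libraries is the rule's own (column sums). Length was taken from counts, FPKM and library totals. Genes named are the 6 members with most counts, the 2 largest called changes per direction and drought comparison without overlap, the 3 lowest CVs, 4 erratic members and those next to the threshold; others were chosen after their values were seen. The members and lists were chosen with earlier results of these data known. DESeq2 1.42.0, 2 other scalings, no filter, a replicate block, smaller fits and leaving out libraries were tried as alternatives, and the code was tested on simulated data. Same-numbered libraries did not deviate together (no comparison had all 3 correlations over 0.1), so numbers were not used to pair them.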

Additional observations from a re-analysis of the deposited data

How the results depend on the processing

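Counts of members called moved with the rule, the test and single libraries. With members at 10 CPM or more (404 models) the counts were 123, 169 and 42 at 6, 12 and 48 h in the autotetraploid and 120, 155 and 14 in the diploid, with 2 for ploidy averaged over treatments; with 40 CPM or more (100 models) they were 34 and 56 at 6 and 12 h in the autotetraploid and 29 and 40 in the diploid. Fewer or more models entered, which by itself changes a count. DESeq2 gave 41 at 48 h in the autotetraploid and 24 in the diploid, 1 for ploidy in controls, 8 at 12 h, 4 averaged, and 1 each for the interactions at 6 and 12 h. No share over all genes was worked out for DESeq2, so its counts have no background beside them. A fit of only the libraries compared gave 13 at 48 h in the autotetraploid, 0 in the diploid and 1 for ploidy at 12 h. The cause was not tested. Leaving out 1 library gave 54 to 67, 70 to 90 and 13 to 32 in the autotetraploid at 6, 12 and 48 h, 51 to 65, 71 to 82 and 0 to 12 in the diploid, 0 to 1 for ploidy in controls, 0 to 1 at 6 h, 0 to 4 averaged, and 0 to 1 for each interaction. The library giving the longest lengths had a median of 1800 bases, against 1695 over libraries. With a replicate block the drought counts were 64, 85 and 25 in the autotetraploid and 63, 79 and 5 in the diploid, and 0 elsewhere; at most 4 of 6 libraries in a comparison correlated best with their own number. Library totals only moved the diploid 48 h split to 2 higher and 2 lower, against 4 and 2. Of 127 calls of named genes, 71 held in all alternatives, and no value reversed. The 3 libraries per group limit the precision.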
